A study of Caenorhabditis elegans with 2 samples.

Results

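The regions described here are the strong ALR-1-GFP ChIP-seq regions that both replicates of the series had in common. They were chosen by the signal value that the authors' peak caller gave to each region. A replicate 1 region was taken when it ranked 1 to 2000 by signal in its own list and its summit, the position of highest signal, lay within 200 bp of a summit ranked 1 to 2000 in replicate 2. This gave 434 regions, 21.7% of the 2000 top regions of replicate 1 and 1.45% of its 30000 listed regions. Seen from replicate 2, 438 regions, or 21.9% of its top 2000, had such a partner. Of the 30000 regions of any rank in replicate 1, 5.11% had a top 2000 summit of replicate 2 within 200 bp, and the share in the other direction was also 5.11%. The rule fixes these counts, so nothing is read from the difference between them. The top 2000 regions without such a partner, 1566 in replicate 1 and 1562 in replicate 2, are called not shared.

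The series has 1 group, whole Caenorhabditis elegans larvae of the L1 stage, with 2 biological replicates. The animals were of strain OP362, genotype unc-119(tm4063) III with the integrated transgene wgIs362, which adds alr-1 with a C-terminal GFP-FLAG tag. They were of mixed sex, aged 6 hours and starved after bleaching, and the tagged protein was precipitated with an antibody against GFP. The replicates therefore share every allele and the treatment, no group lacks the tag, and a whole-animal sample does not say which cells a region came from. The control data were not analysed here, and read depth is unknown from lists of regions.

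ALR-1 is a homeodomain protein of the aristaless family. In C. elegans it is known for roles in the differentiation of touch receptor neurons, of a class of GABAergic motor neurons and of cells of the amphid sense organ. Paired-class homeodomains of this kind bind DNA as monomers or as dimers, at cores of the letters TAAT, and TAATTA holds that core on both strands. In ChIP-seq, fragments of chromatin carrying the tagged protein are pulled down and sequenced, and a list of regions ranks the places where such fragments pile up.

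The sequences at the top of both lists are shown first, because the comparison below turns on what kind of DNA the shared regions hold. They are the 5 shared regions that placed highest, by the worse of their ranks in the replicates, among those with no annotated UTR in the span and on chromosomes III, V and X. Each is the plus strand of build ce11 (the same assembly as WBcel235, read from the RefSeq genome), 201 bases long, with the replicate 1 summit at base 101. Capitals mark TAATTA. In order, they are chrV:14686585-14686785 in hsp-90, chrX:11124134-11124334 in alr-1, chrIII:5707619-5707819 in hpo-28, chrIII:833160-833360 in zip-2 and chrIII:12562920-12563120 in aakg-1.
hsp-90: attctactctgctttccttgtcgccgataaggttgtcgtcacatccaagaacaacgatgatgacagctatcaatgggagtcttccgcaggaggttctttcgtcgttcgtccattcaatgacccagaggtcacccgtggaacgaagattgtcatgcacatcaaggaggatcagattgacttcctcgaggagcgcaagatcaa
alr-1: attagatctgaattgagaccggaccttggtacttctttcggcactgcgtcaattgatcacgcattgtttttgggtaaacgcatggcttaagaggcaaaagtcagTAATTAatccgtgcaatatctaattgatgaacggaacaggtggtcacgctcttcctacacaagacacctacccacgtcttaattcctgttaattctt
hpo-28: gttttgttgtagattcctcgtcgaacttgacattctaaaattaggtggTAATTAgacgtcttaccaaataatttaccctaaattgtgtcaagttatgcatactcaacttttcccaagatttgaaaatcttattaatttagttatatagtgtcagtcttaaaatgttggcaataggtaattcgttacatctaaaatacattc
zip-2: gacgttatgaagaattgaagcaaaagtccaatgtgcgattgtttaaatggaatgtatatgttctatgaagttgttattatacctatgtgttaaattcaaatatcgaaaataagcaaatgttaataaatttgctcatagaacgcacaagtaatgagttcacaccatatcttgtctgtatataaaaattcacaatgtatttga
aakg-1: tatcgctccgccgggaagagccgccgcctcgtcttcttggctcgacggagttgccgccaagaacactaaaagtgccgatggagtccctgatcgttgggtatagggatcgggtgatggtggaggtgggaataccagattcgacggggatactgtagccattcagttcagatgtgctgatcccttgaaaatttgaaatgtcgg
The hsp-90 window lay wholly in a coding exon and had a GC content of 48.8%. The hpo-28 window lay mostly in an intron, at 29.9% GC, and the zip-2 window in an intron that also holds an exon of linc-37, at 28.4%. The aakg-1 window, at 54.2% GC, was mostly coding sequence of that gene. TAATTA occurred once each in the alr-1 and hpo-28 windows and in none of the other 3.

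The regions that both replicates placed highest lay in hsp-90, alr-1 and rpl-31. The member with the best pair of ranks fell within protein-coding sequence of hsp-90, the gene of the cytosolic chaperone Hsp90, with a signal of 102 (rank 1) in replicate 1 and 99.8 (rank 2) in replicate 2. Signals are the authors' values and compare within a list only. The alr-1 region (X:11124062-11124405, summit 1386 bp downstream of the gene's 5′ end) had a signal of 78.5 (rank 9) in replicate 1 and 88.9 (rank 6) in replicate 2. That in rpl-31, which encodes a protein of the ribosome's large subunit (I:13653261-13653604), had 78.1 (rank 10) and 93 (rank 4). These 3 regions were thus within the top 10 of both lists, and no other member was. The region in hpo-28 had signals of 76.6 (rank 12) and 93.3 (rank 3), and the region in zip-2, a bZIP transcription factor gene, 74.1 (rank 17) and 81.1 (rank 15). The next were in an intron of afd-1, the gene for the junction protein afadin (I:2177688-2178031), with 70 (rank 26) and 102 (rank 1), and in aakg-1, which encodes a gamma subunit of AMP-activated kinase, with 71.3 (rank 21) and 75.6 (rank 27).

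Among the 20 members with the best pair of ranks, 11 had their summit in a coding exon, 5 in a promoter window, 3 in an intron and 1 in an exon of a pseudogene near sup-35 (III:11109916-11110259, ranks 34 and 33). Several of these genes serve metabolism, translation or splicing in all cells. The summit in atp-2, the beta subunit gene of ATP synthase, ranked 39 in replicate 1 and 16 in replicate 2, that in rpl-3 ranked 52 and 23, and that in prp-8, the core spliceosome gene, 58 and 51. The intron summit in sftb-6, a splicing factor gene, ranked 37 and 42 and fell on the same base in both replicates. Signalling and regulatory genes were also present. The summit in egl-4, which encodes a cGMP-dependent protein kinase, ranked 113 and 92, and that in eor-1, a zinc finger transcription factor gene, 89 and 120. Coding summits in F13H8.2 (ranks 25 and 68), dip-2 (70 and 77), the translation initiation factor gene eif-3.D (72 and 85), tbc-12 (13 and 98) and the lectin gene clec-80 (105 and 37), and a promoter-window summit in the ankyrin gene unc-44 (5 and 101), completed the 20.

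**Figure D1:**
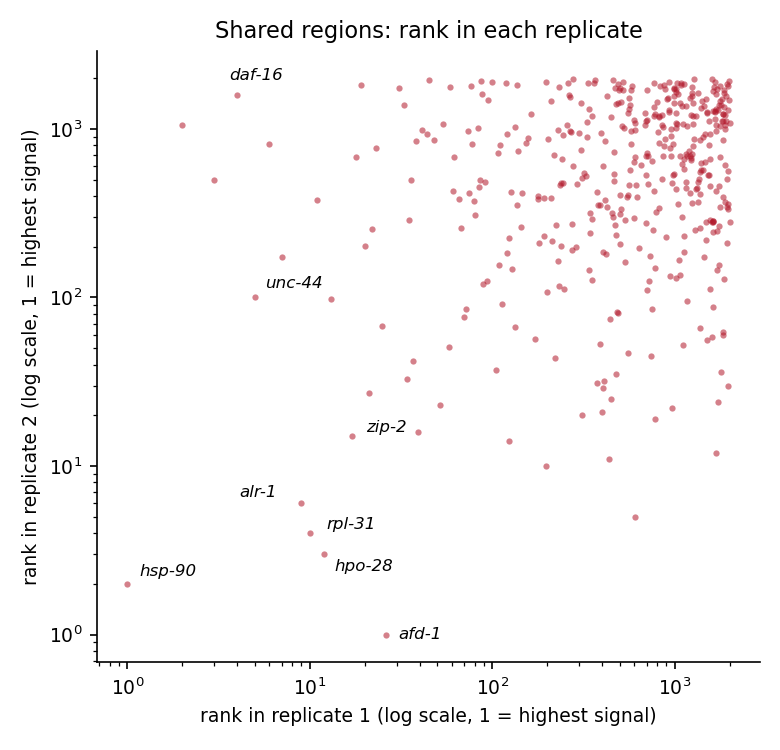
Rank of each of the 434 shared regions in replicate 1 (horizontal) and in replicate 2 (vertical), both on log scales with rank 1 the highest signal; each point is 1 region. The regions in hsp-90, alr-1 and rpl-31 are the 3 with ranks up to 10 in both lists, while the daf-16 region has rank 4 in replicate 1 and rank 1588 in replicate 2.

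Over all 434 shared regions, the head of the list included, the ranks in the replicates often differed. Median ranks were 700 in replicate 1 and 664 in replicate 2, and Spearman's rho between the ranks was 0.193. The rule caps both ranks, so rho is given as a description and nothing is read from its size. Only 16 members ranked within the top 100 of both lists, 101 within the top 500 and 191 within the top 1000. Several members were near the top of 1 list and far lower in the other. A promoter-window region on chromosome V (18724056-18724399), with its summit at -4241 bp from the 5′ end of Y17D7C.2, had a signal of 90.1 (rank 2) in replicate 1 and 49.5 (rank 1050) in replicate 2. A region in daf-16, the FOXO transcription factor gene of insulin signalling (I:10763005-10763348), had 82.9 (rank 4) and 46.8 (rank 1588), and one in the helicase gene ddx-17 had 84.5 (rank 3) and 54.6 (rank 495). The reverse held in gmpr-1, the GMP reductase gene, whose coding summit had 43 (rank 1672) in replicate 1 and 83.8 (rank 12) in replicate 2. The pairs of ranks closest in ratio were in chat-1 (1020 and 1018), the phosphatase gene lip-1 (565 and 567), the AP-2 transcription factor gene aptf-2 (275 and 273) and the aspartyl-tRNA synthetase gene dars-1 (695 and 688).

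The share of top regions that had a partner was highest at the best ranks. In replicate 1, 59% of ranks 1 to 100 were shared (exact 95% interval 48.7 to 68.7), 32.7% of ranks 101 to 250, 27.6% of ranks 251 to 500 and 19.2% of the next 500 ranks. The last 2 bins, ranks 1001 to 1500 and 1501 to 2000, had 15.8% and 16.4%. Replicate 2 gave 53% (42.8 to 63.1), 32%, 35.2%, 18.6%, 17% and 14.2% over the same bins. Intervals of shares cover the counting of regions only. The bins use the ranks that chose the members, so these shares are given as a description only. Median ranks in replicates 1 and 2 were 700 and 664 for members, and 1070 and 1084 for not shared regions. Rank thus moves with every comparison below.

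**Figure D2:**
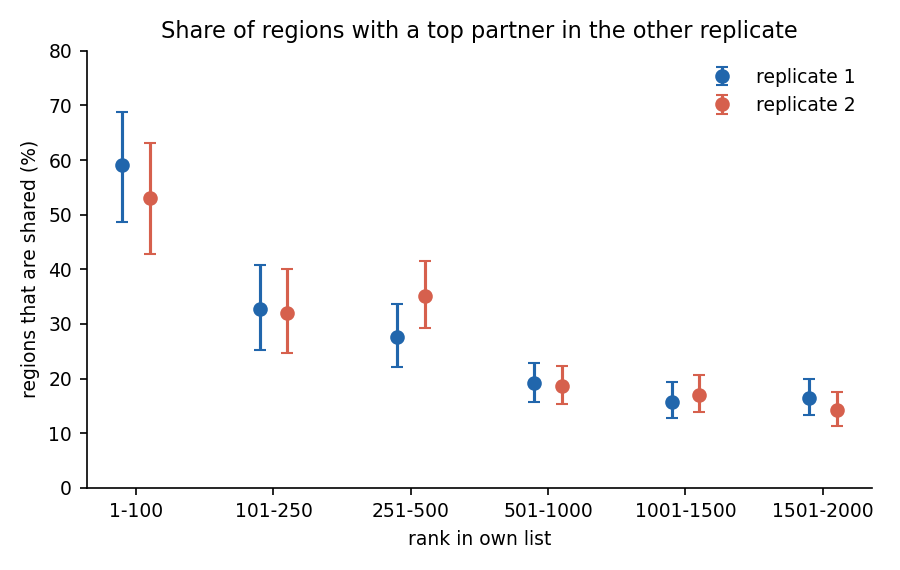
Percentage of regions that are shared (vertical axis), by rank bin in the region's own list (horizontal axis), for replicate 1 and replicate 2; bars are exact 95% binomial intervals over 100 to 500 regions a bin. The share is 59% and 53% at ranks 1 to 100 and 16.4% and 14.2% at ranks 1501 to 2000.

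Summits of a pair mostly lay well inside the distance limit of the rule. The rule caps this distance and the nearest summit was taken, so it is given as a description only. The median distance was 37.5 bp, with quartiles of 14 and 79.5 bp, against region widths of 344 bp in replicate 1 and 384 bp in replicate 2. The distance was 0 bp for 7 pairs, at most 50 bp for 265 and at most 100 bp for 361. It had no steady course with rank: the median was 30 bp for the 40 pairs whose worse rank was at most 250, 40 bp for the 61 up to rank 500, 32.5 bp for the 90 up to rank 1000 and 41 bp for the 243 beyond. The members just inside the distance limit were an intergenic region near tbc-17 (194 bp apart) and one in W04C9.6 (199 bp), and those just outside were regions in cbp-1 (208 bp) and hsp-110 (211 bp). At the rank limit, regions in sacm-1L (ranks 1995 and 280) and tub-2 (1998 and 1089) were inside. A region near cutl-15 (2005 and 987) and one in F23H11.2 (2006 and 428) were outside.

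The authors' combined lists, made from the same 2 replicates, placed the shared regions near their top. The members were chosen by high rank in both replicates, so this largely follows from the rule and is given as a description only. The authors kept 182 peaks in an irreproducible discovery rate (IDR) step, which weighs how well replicates rank the same regions. Of the 434 members 157 lay at such a peak, against 12 not shared regions of replicate 1 and 14 of replicate 2. The nearest summit of the list from pooled replicates had a median rank of 301 for shared regions, and 2746 and 2516 for the not shared ones. All 434 had a pooled summit within 200 bp. Of the not shared regions, 547 of replicate 1 (34.9%) and 522 of replicate 2 (33.4%) had no summit of any rank within 200 bp in the other replicate's 30000 regions. The others had a partner at a median rank of 9200 in replicate 2 and 9582 in replicate 1. Since the lists end at 30000 regions, absence from a list is not a signal of 0.

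Regions at the very top of 1 list were among the not shared. In replicate 1 these were a region in sup-35 (rank 8, with its replicate 2 partner at 2826), and regions in zer-1 (rank 14, partner 7249), F46F11.8 (rank 15, partner 15467), the proteasome gene rpt-4 (rank 16, partner 5442) and T07A9.14 (rank 24, partner 3521). In replicate 2, a region near Y48C3A.20 (rank 7), one in the Raf kinase gene lin-45 (rank 8) and another near hlh-11 (rank 9) lacked any replicate 1 summit as close as 200 bp. The region in the kinase gene pig-1 (rank 13) had its partner at 8434, and one near rpl-3 (rank 17) at 25112. High rank in 1 replicate was thus not enough to be shared, in either direction.

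Coding exons were the commonest place for a shared summit. They held 192 of the 434 shared summits (44.2%, exact 95% interval 39.5 to 49.1). Promoter windows span 500 bp before and 100 bp after the 5′ end of every annotated transcript, alternative ones included, of genes of any type. They held 104 (24%), introns 77 (17.7%) and intergenic sequence 50 (11.5%). The 3′ UTR held 6, the 5′ UTR 3 and exons of non-coding genes 2. The coding exon share was 8.05 percentage points above the 36.2% of all not shared regions together (95% interval 3.14 to 13, adjusted p = 0.0101 by a two-sided Fisher's exact test in each of 7 classes). None of the other 6 classes passed, with differences from -3.2 points for introns (adjusted p = 0.3) to -0.0121 points for the 5′ UTR (adjusted p = 1) by the same exact test. Regions are the units of these tests and not replicates of a condition, so the p-values describe these lists and not the spread between animals.

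The difference in coding exons depended on which replicate supplied the not shared regions. Against those of replicate 2 alone, of which 30.7% lay in coding exons, it was 13.6 points (interval 8.41 to 18.8; Fisher's exact test, adjusted p = 1.49e-06). Against those of replicate 1 alone, of which 41.7% did, it was 2.54 points (-2.68 to 7.83; exact test, adjusted p = 0.614), so the interval holds 0 and excludes a difference above 7.83 points. The not shared regions of the replicates also differed from each other, by 11 points (7.67 to 14.4; exact test, adjusted p = 1.03e-09). Intergenic sequence showed the same split. It held 11.5% of shared summits, 10.6% of not shared summits of replicate 1 and 18.2% of those of replicate 2, the last a difference of -6.73 points (-10.1 to -2.91; exact test, adjusted p = 0.00283). Below rank 2000, coding exons held 26.7% of replicate 1 and 24.3% of replicate 2 summits, and intergenic sequence 18.5% and 20.4%. Limits of the coding exon call were that it was lost within ranks 1 to 500 (8.97 points, exact test, adjusted p = 0.262), within ranks past 500 (6.42 points, adjusted p = 0.335), with the top 1000 only (8.97 points, adjusted p = 0.133) and with wider promoters that reach 2000 bp before and 200 bp after the 5′ end (1.15 points, adjusted p = 0.703).

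**Figure D3:**
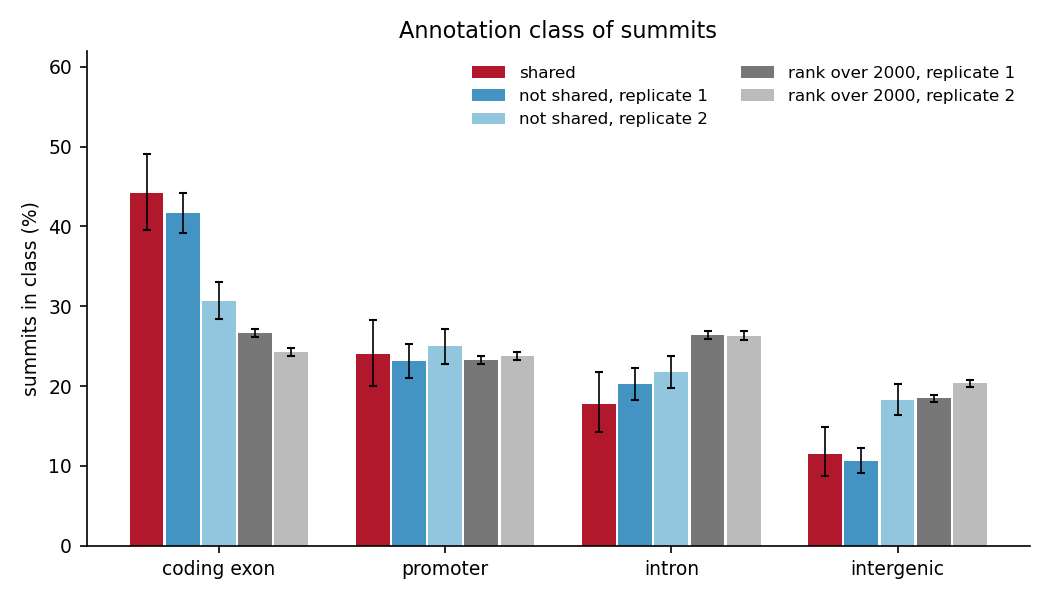
Percentage of summits (vertical axis) in the 4 commonest annotation classes (horizontal axis) for shared regions, for not shared top 2000 regions of each replicate and for regions ranked over 2000; bars start at 0 and error bars are exact 95% binomial intervals over regions. The coding exon share is 44.2% in shared, 41.7% in not shared replicate 1 and 30.7% in not shared replicate 2 regions.

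Each class had members high in both lists. Among coding exons these were hsp-90, atp-2 and rpl-3, and among introns hpo-28, afd-1 and sftb-6. In promoter windows they were the regions in alr-1, rpl-31 and zip-2. The summits in alr-1 and zip-2 lay 1386 and 278 bp downstream of the 5′ ends of those genes. They therefore counted as promoter through the 5′ end of another transcript, of the same gene or of another, non-coding genes included. The best intergenic members were weaker, near the tyrosine kinase gene csk-1 (ranks 144 and 261), the AMP deaminase gene ampd-1 (350 and 127) and the MADS-box factor gene mef-2 (415 and 380). In 3′ UTRs the best were del-6, which overlaps vps-54 on the other strand (200 and 108), ubl-1 (233 and 117) and lip-1. In 5′ UTRs they were F25H2.6 (463 and 537), Y82E9BR.17 (110 and 803) and the dystrobrevin gene dyb-1 (575 and 976), and the other member in an exon of a non-coding gene, linc-143, lay within daf-2, the insulin receptor gene (1858 and 128).

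Shared regions were richer in G and C than the genome and than the not shared regions of replicate 2. Within 100 bp of the summit their GC content averaged 40.3% ± 7.84 (SD, n = 434 regions) and ran from 22.4%, in pcyt-2.1, to 62.2%, in dml-1 and nprt-1. The whole genome has 35.4%. Not shared regions averaged 39.6% ± 7.75 (n = 1566) in replicate 1 and 36.8% ± 7.91 (n = 1562) in replicate 2, and regions ranked over 2000 averaged 36% and 35.1%. The mean of shared regions was 2.07 points above all not shared regions (95% interval 1.28 to 2.86) and 3.46 points above those of replicate 2 (2.62 to 4.3). It was 0.69 points above those of replicate 1, with an interval of -0.143 to 1.52 that holds 0. The not shared regions of replicate 1 themselves exceeded those of replicate 2 by 2.77 points (2.22 to 3.32).

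GC content went with the annotation class. Shared coding exon summits averaged 43.9%, promoter summits 38%, intron summits 38.4% and intergenic summits 34.8%. Within a class, shared regions were compared only with the not shared regions of both replicates together. They were higher by 1.15 points in coding exons (95% interval 0.148 to 2.16). In introns the excess was 2.31 points (0.669 to 3.96) and in promoter windows 1.91 (0.197 to 3.62). In intergenic regions the difference was 1.2 points with an interval of -0.787 to 3.18. No class was compared with replicate 1 alone, where the difference over all classes was 0.69 points (-0.143 to 1.52). By rank, shared regions of replicate 2 averaged 39.4% to 40.6% in all 6 rank bins, above the 36% to 38.8% of not shared regions in each bin. In replicate 1 shared regions averaged 43.3% at ranks 1 to 100 and 39% to 40.9% after that. There they were above the not shared regions in 3 of 6 bins, by at most 1.1 points, and the lowest difference of a bin was -2.1 points.

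**Figure D4:**
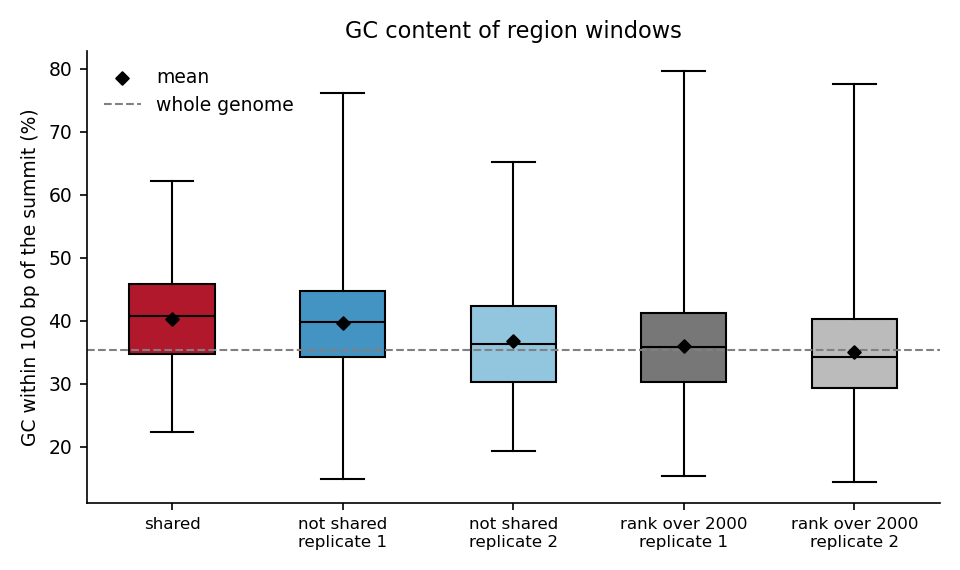
GC content within 100 bp of the summit (percent, vertical axis) for shared regions, not shared top 2000 regions and regions ranked over 2000 in each replicate; boxes span the quartiles with the median as a line, whiskers reach the lowest and highest region, diamonds are means and the dashed line is the whole genome at 35.4%. Shared regions and not shared regions of replicate 1 have means of 40.3% and 39.6%, above the 36.8% of replicate 2.

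The word TAATTA was not common in shared regions, while the shorter core was present in most. TAAT or ATTA occurred within 100 bp of 338 of the 434 shared summits (77.9%) and of 81.2% of all not shared summits. TAATTA, which is its own reverse complement, so that 1 search covers both strands, occurred within 100 bp of 26 of 434 summits (5.99%, exact 95% interval 3.95 to 8.65). The shares were 8.11% and 9.73% in not shared regions of replicates 1 and 2, and 10% and 10.6% in regions ranked over 2000. The difference from all not shared regions was -2.93 points (-5.07 to -0.121; two-sided Fisher's exact p = 0.0436). It was -3.74 points against replicate 2 (exact p = 0.0169) and -2.12 points against replicate 1 (-4.49 to 0.805; exact p = 0.154). GC content, which differed in the same comparison, sets how often an AT-only word occurs, and its part in the result was not tested. The call was lost under most alternatives: within ranks 1 to 500 (exact p = 0.74) and ranks past 500 (0.0667), with summit distances of 100 bp (0.0907) and 500 bp (0.0906), with 250 bp on either side of the summit (1), with TAAT or ATTA (0.105) and at replicate 2 positions (0.092). It held with 50 bp on either side (-2.14 points, exact p = 0.0396). Members that held the word included the regions in alr-1 and hpo-28, in clec-80, in the 3′ UTR of del-6, near mef-2 and in a promoter window before cbp-1, the CBP/p300 acetyltransferase gene. A match to these letters is a description and does not mark a bound site.

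Shared summits had close neighbours more often than not shared ones. The neighbours were top 2000 regions by the signal that also chose the members, so values and p-values are given as a description only. A second top 2000 region of the same list lay within 5000 bp of 154 of the 434 shared summits (35.5%, exact 95% interval 31 to 40.2). This held for 28.3% of not shared summits in replicate 1 and 25.5% in replicate 2. The difference was 8.57 points against both together (3.93 to 13.4; two-sided Fisher's exact p = 0.000255), 7.2 points against replicate 1 (2.28 to 12.3; exact p = 0.00441) and 9.94 points against replicate 2 (5.05 to 15; exact p = 6.09e-05). The rule did not use annotation class, GC content, TAATTA or chromosome. None of these gave a difference past the threshold against the not shared regions of replicate 1 alone. For neighbours the difference was 5.36 points and short of the threshold within ranks past 500 (-0.243 to 11.5, Fisher's exact p = 0.0723).

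Groups of shared regions were small. Within 5000 bp of each other, 386 members stood alone and 48 formed 24 pairs, with no group of 3. Pairs lay at rpl-31 and sac-2, at cbp-1 (ranks 45 and 120 in replicate 1, 1942 and 938 in replicate 2), beside rpl-21 and beside rpl-7. Pairs inside 1 gene lay in unc-44 (ranks 5 and 86 in replicate 1, 101 and 499 in replicate 2), in chat-1 (6 and 1020, 812 and 1018) and in the cation channel gene unc-77. Over whole genes, 14 protein-coding genes held 2 or more shared summits. The only one with 3 was ssl-1, a gene of 30156 bp on chromosome III that encodes a Swi2/Snf2-like ATPase. Its summits ranked 11, 289 and 1679 in replicate 1 and 377, 198 and 1306 in replicate 2. In daf-16 the summits ranked 4 and 1239 in replicate 1 and 1588 and 714 in replicate 2.

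The gene of the tagged protein, alr-1 (WBGene00044330, X:11121871-11125620, minus strand), held 2 shared members in 3750 bp. The genotype lists a transgene of alr-1 and no mutation of the gene itself, and in these lists reads from the transgene and from the endogenous gene cannot be told apart. The first member was the region of ranks 9 and 6 described above. The second had its replicate 1 summit at 11122695 with a signal of 41.9 (rank 1954), and its partner at 11122590, 105 bp away, had a signal of 75 (rank 30) in replicate 2. The other top regions in the gene had no top partner. Those of replicate 1 were at 11123525 (signal 56, rank 215) and 11125172 (signal 51.2, rank 454), and that of replicate 2 was at 11124881 (signal 63.5, rank 140).

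More genes than positions were common to both lists. A whole gene is a wider target than the distance limit for summits, so nothing is read from this. Protein-coding genes holding a top 2000 summit numbered 1457 in replicate 1 and 1317 in replicate 2, and 479 held one in both, which is 32.9% and 36.4% of each list. Of these 479, 338 held a shared summit and 141 held top summits of both lists only at separate positions. Host lengths are counted per summit, and a longer gene has more room for a summit. Nothing is therefore read from their excess over the lengths of all genes, which are counted per gene. The 346 shared summits inside a protein-coding gene (79.7%) had a median host length of 4230 bp, against 4778 and 4758 bp for the not shared regions and 2027 bp over all 19973 protein-coding genes. The share inside a protein-coding gene was 79.8% for not shared regions of replicate 1 and 69.3% for replicate 2.

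By function, ribosomal protein genes were reached by shared summits at a share above that of all genes, and so they were by not shared summits. A gene counts as reached when its 5′ end had a summit no more than 1500 bp before or 500 bp after it. Shared summits reached 277 of 19973 protein-coding genes (1.39%), and not shared summits, which are more numerous, reached 3.85% in replicate 1 and 4.07% in replicate 2. Of 82 ribosomal protein genes, shared summits reached 12 (14.6%), against 12 (14.6%) and 19 (23.2%) for not shared summits. The best placed were rpl-31, rpl-3, rps-17 and rpl-7, with worse ranks of 10, 52, 273 and 312. Of 77 splicing genes they reached 7 (9.09%), against 6 (7.79%) and 14 (18.2%), led by sftb-6, snr-2, rsp-6 and snr-7 with worse ranks of 42, 386, 604 and 680. With the summit anywhere inside the gene, shared summits lay in 10 ribosomal protein genes (12.2%) and 3 splicing genes (3.9%), beside 1.7% of all protein-coding genes. With a window of 500 bp before to 100 bp after the 5′ end, the counts were 3 (3.66%) and 0, beside 0.265% of all genes, so the splicing count depends on the window. These are counts with no test, from lists chosen with earlier results known.

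The other housekeeping lists each had 5 or fewer genes reached. Over all protein-coding genes the share was 1.39%, and 3.85% and 4.07% for the larger sets of not shared summits. Of 86 chaperone genes shared summits reached 5 (5.81%), against 7 and 6 for not shared summits. First were dnj-1 (worse rank 498), cyn-12 (713), cct-7 (723) and cyn-1 (969), while the hsp-90 summit was too far from the gene's 5′ end to count. They reached 2 of 44 translation factor genes (4.55%, against 6 and 3), eif-3.D and eif-6 (worse ranks 85 and 387). Of 21 actin and tubulin genes they reached 2 (9.52%, against 1 and 1), tba-2 (387) and tbb-1 (1973). In the respiratory chain they reached 2 of 67 genes, mev-1 (929) and ucr-11 (1946), against 9 and 8 for not shared summits. They reached 1 of 33 proteasome genes, pbs-2, against 6 and 7, and 1 of 21 vacuolar ATPase genes, vha-2, against 3 and 3. Of 137 chromatin and transcription genes they reached 1, cbp-1, against 8 and 14. With summits anywhere inside the gene, the chromatin and transcription count was 8, against 13 and 11, and the vacuolar ATPase count was 3 (14.3%, with vha-13 and vha-15 added), against 2 and 3. The actin and tubulin count was then 1, against 2 and 1, and the share over all protein-coding genes was 1.7%. These counts depend on where in the gene a summit is looked for.

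In lists of nervous system genes and of transcription factor families, shared summits reached 0 to 3 genes each near the 5′ end. The share over all protein-coding genes was 1.39%. Of 44 pan-neuronal genes shared summits reached 2 (4.55%), against 0 and 3 for not shared summits. These were the neuroendocrine chaperone gene sbt-1 (worse rank 1604) and the tomosyn gene tom-1 (1768), both far down. Of 104 homeobox genes shared summits reached 3 (2.88%), against 6 and 1, namely ceh-39 (1063), lim-4 (1304) and ceh-34 (1532). They reached 0 of 26 touch receptor and GABA genes, 0 of 108 neuropeptide genes, 0 of 274 nuclear hormone receptor genes, 0 of 176 collagen genes, 0 of 72 histone genes, 0 of 37 kinesin and dynein genes and 0 of 32 aminoacyl-tRNA synthetase genes. Single genes were reached in axon guidance (smp-2, 1 of 43), insulin and starvation signalling (akt-2, 1 of 71), autophagy (atg-7, 1 of 28), germline (spe-6, 1 of 131) and body wall muscle (pat-6, 1 of 39). Summits farther inside genes change several of these counts. Shared summits lay anywhere inside 4 kinesin and dynein genes (10.8%, against 6 and 11 genes for not shared summits), among them klp-11, klp-12 and klp-19. They lay in 4 axon guidance genes (9.3%, against 10 and 10), 4 of insulin and starvation signalling (5.63%, against 4 and 6), 3 nuclear hormone receptor genes, 2 germline genes, 1 histone gene, 1 touch receptor and GABA gene and 1 aminoacyl-tRNA synthetase gene, dars-1. All protein-coding genes were then at 1.7%. The genes alr-1, daf-16 and daf-2 were also of this kind. Counts of 0 to 4 in lists of these sizes are too small to be read as a difference.

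**Figure D5:**
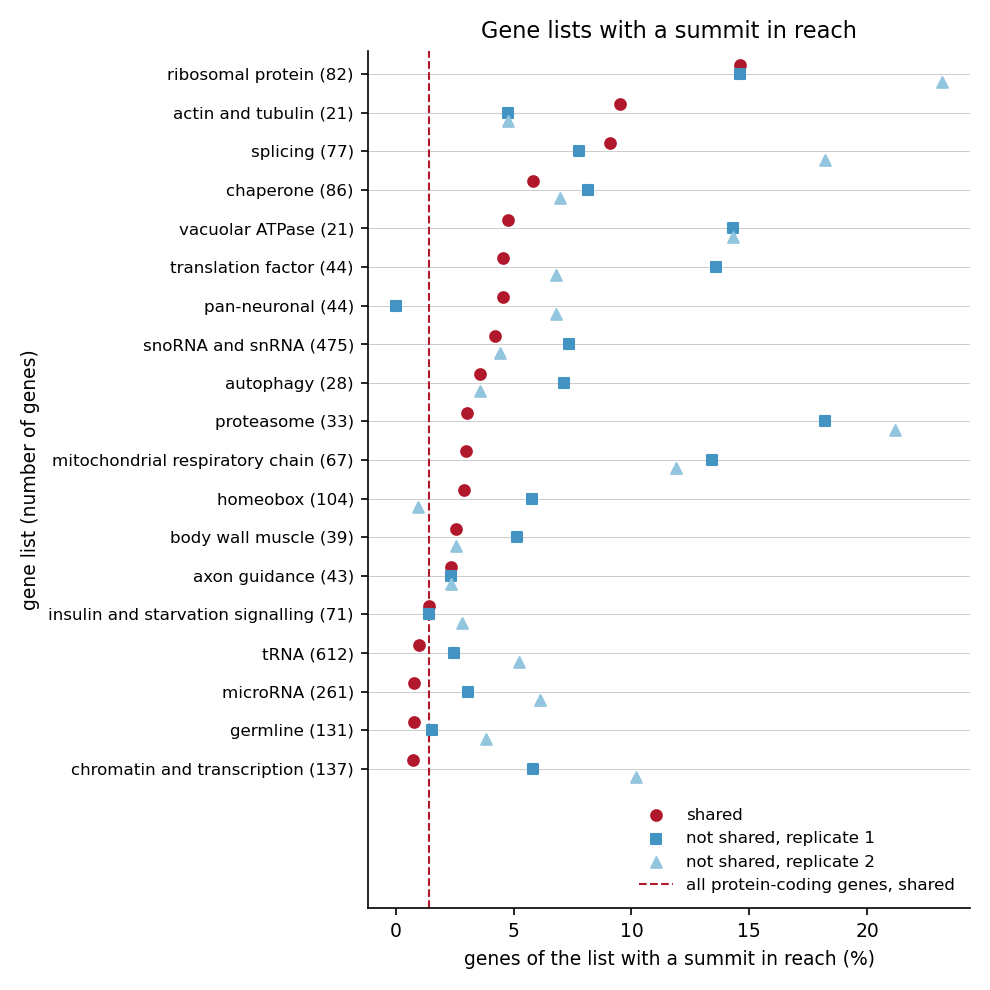
Percentage of the genes of each list with a summit between 1500 bp before and 500 bp after the 5′ end (horizontal axis), for the 19 lists reached by at least 1 shared summit other than piRNA genes, with the number of genes in brackets; circles are the 434 shared, squares and triangles the 1566 and 1562 not shared regions. The dashed line is the 1.39% of all protein-coding genes reached by shared summits, to be read against the circles only, since the sets differ in size; ribosomal protein genes have the highest circle, at 14.6%.

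Genes for small RNAs were counted in the same way, and no difference between their types was tested. Shared summits reached 20 of 475 snoRNA and snRNA genes (4.21%), against 35 (7.37%) and 21 (4.42%) for not shared summits. The best placed were K02F3.15 in zip-2 (worse rank 17), C50C3.13 in prp-8 (58), H06I04.8 (233) and F53G12.12 (312). Of 612 tRNA genes shared summits reached 6 (0.98%), against 15 (2.45%) and 32 (5.23%). WBGene00023124 and WBGene00023126, both beside the tbc-12 summit, came first. Of 261 microRNA genes shared summits reached 2 (0.766%), cel-mir-86 (1209) and cel-mir-235 (1931), against 8 (3.07%) and 16 (6.13%). Of 20 rRNA genes they reached 0. The share over all protein-coding genes was 1.39%. With the summit inside the gene itself the counts were 2 for snoRNA and snRNA genes, 0 for tRNA genes and 0 for microRNA genes. Of 15363 piRNA genes, which lie mostly in large arrays on chromosome IV, they reached 63 (0.41%), against 461 (3%) and 705 (4.59%). Counted by summit instead of by gene, 20 shared summits reached a piRNA gene (4.61%, exact 95% interval 2.84 to 7.03). That share was 5.62% for not shared summits of replicate 1 (4.53 to 6.88) and 8.45% for replicate 2 (7.12 to 9.94). The intervals of shared regions and replicate 2 do not overlap, while those of shared regions and replicate 1 do. Regions ranked over 2000 had 7.39% in replicate 1 and 8.3% in replicate 2.

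The chromosomes held shared regions unevenly, without a difference from all not shared regions together past the threshold. Chromosome IV held 102 of the 434 (23.5%), III 101 (23.3%), I 98 (22.6%), V 49 (11.3%), II 43 (9.91%) and X 41 (9.45%). In the same order, all not shared regions together had 20.7%, 19.1%, 20%, 15.2%, 12.8% and 12.2%. Regions ranked over 2000 had 18.8%, 15.3%, 16.6%, 18.7%, 14.3% and 16.2% in replicate 1. In replicate 2 they had 19.4%, 14.5%, 16%, 18.6%, 13.8% and 17.8%. Against all not shared regions the differences ran from -3.86 points on V to 4.15 points on III (two-sided Fisher's exact test in each of 6 chromosomes, adjusted p = 0.136 for both). Against replicate 2 alone both passed, with 5.73 points on III and -5.36 points on V (exact test, adjusted p = 0.0247 each). Against replicate 1 alone neither did, with 2.58 and -2.38 points (exact test, adjusted p = 0.313 each). Windows made mostly of sequence present elsewhere in the genome, judged by 31-base words, were rare in every set. There was 1 among the 434 shared regions (0.23%), against 0.511% and 0.576% of the not shared regions.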

How the data were processed

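The assay was ChIP-seq of ALR-1-GFP in whole L1 larvae, with 1 group and 2 biological replicates numbered as in the labels. Only lists of regions in build ce11 were used, per the labels. The deposited descriptions say that the lists came from each replicate's alignments together with a control file. The sources used here do not give the aligner, peak caller, settings or IDR threshold. The ranking column holds the signal value of the authors' peak caller, used only to order regions within a list. Depth per sample is unknown, so intervals cover the counting of regions only.

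Members were chosen by signal rank and summit distance as the report states. The members, the 28 gene lists and the tests were chosen with earlier results of these data known. Classes came from Ensembl release 115; where several applied, the promoter was taken first, then UTRs (5′ before 3′), exons (coding before non-coding), introns and intergenic sequence. GC content and TAATTA were read in 201 bp windows. The test of shares was the two-sided exact test of Fisher, with Benjamini-Hochberg adjustment over 7 classes or 6 chromosomes, a threshold of 0.05 and Newcombe 95% intervals. GC means have unequal-variance 95% intervals, and single shares have Clopper-Pearson intervals.

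Named regions are the 20 with the lowest worse rank, the best 3 of each class, the 4 largest and 4 smallest rank ratios, 2 on each side of each threshold, those in alr-1, up to 4 genes of each list with 2 or more reached, the 5 best not shared of each list and genes with 3 or more shared summits. Other regions or genes named, such as those with neighbours, the highest and lowest GC, daf-2, the other regions in alr-1, genes with summits farther inside and single reached genes, were chosen after their values were seen. Alternatives covered the distance, the number of regions, rank strata, windows and each replicate alone. Removing repeated windows and using replicate 2 positions were added after seeing the data. The matching and tests were tested on simulated data. The software was scipy 1.17.1, numpy 2.4.6, matplotlib 3.10.9 and pandas 2.3.3 under Python 3.11.15.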

Additional observations from a re-analysis of the deposited data

How the results depend on the processing

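No paired analysis was possible because there is 1 group, so the replicate numbers pair no samples across groups. Differences below are shared minus not shared, in percentage points, and causes were not tested unless stated. With the not shared regions of 1 replicate at a time, the differences ran from -1 to 0.847 for promoters, -0.013 to -0.0112 for the 5′ UTR, -1.18 to -1.04 for the 3′ UTR, 2.54 to 13.6 for coding exons, -0.816 to -0.692 for non-coding exons, -3.96 to -2.44 for introns and -6.73 to 0.92 for intergenic sequence. They ran from 0.69 to 3.46 for GC, -3.74 to -2.12 for TAATTA and 7.2 to 9.94 for a second region. By chromosome they ran from 1.89 to 3.25 on I, -3.69 to -2 on II, 2.58 to 5.73 on III, 1.99 to 3.58 on IV, -5.36 to -2.38 on V and -3.61 to -1.98 on X. The value against replicate 1 was the farther from 0 for non-coding exons and chromosomes II and IV. For all the others it was the value against replicate 2.

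The number of shared regions was 265 with a limit of 50 bp, 192 in the top 1000 and 997 in the top 4000, by construction. Coding exons were short of the threshold at 8.97 in the top 1000, 8.97 in ranks 1 to 500, 6.42 in ranks past 500 (all with fewer regions tested) and 1.15 with wide promoters, which take summits first. TAATTA was short of it at -2.66 with 100 bp, -2.38 with 500 bp, -3.51 in ranks past 500, -1.04 in ranks 1 to 500, -0.0174 with 250 bp windows, -3.29 for TAAT or ATTA and -2.65 at replicate 2 positions. A second region was short of it at 5.36 in ranks past 500, and GC at 1.2 within intergenic regions. Chromosome III passed at 5.74 with 500 bp and 5.97 at replicate 2 positions, where V (-5.23) and intergenic sequence (-6.6) also passed. Signs turned, from main differences under 1 point, for promoters at 0.176 with 500 bp, 0.0982 in the top 4000, 0.668 in ranks past 500, 3.16 with protein-coding promoters and 5.19 with wide ones. They turned for the 5′ UTR at 0.16 with 100 bp, 0.882 in the top 1000, 0.136 in the top 4000, 0.184 in ranks 1 to 500, 0.0348 without chromosome X and 0.0178 without repeated windows. They also turned for non-coding exons at 0.0452 with wide promoters and, from -3.86, for chromosome V at 0.0606 in ranks 1 to 500. With a gene window of 500 bp before and 100 bp after the 5′ end, 53 protein-coding genes were reached in place of 277. Of 181 recomputed values of the main comparisons, 139 kept their direction and their side of the threshold or, for counts, stayed within 1.5 times. Of 56 recomputed counts of single gene lists, 21 stayed within 1.5 times and 35 did not. Read depth is unknown, so the error of a rank near 2000 cannot be given.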
